A study of Chlorocebus sabaeus with 10 samples.

Results

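The 10 genes described here are the core genes of the circadian clock and its D-box output arm: ARNTL, CLOCK, PER1, PER2, PER3, CRY1, CRY2, DBP, TEF and NFIL3. Their rows were picked from the transcript table by gene symbol, not by their values, although the set itself was chosen with earlier results of these data known. All 10 were present, each as 1 transcript, among 28078 transcripts listed and 16124 with a count. The study asked how the liver of female, age-matched vervet monkeys (Chlorocebus sabaeus) responds to a high fructose (HFr) diet. After a period on chow shared by all animals, 5 were fed HFr and 5 stayed on chow for 6 weeks. The diet groups had been balanced for age and body weight. The paper still reports a higher mean age on HFr than on chow, not significantly so and with a wide spread within each diet. Each animal gave 1 liver biopsy and 1 stranded mRNA library. The hour of each biopsy and the composition of the diets are not given in the sources used here.

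In the clock of liver cells, the ARNTL protein (BMAL1) pairs with CLOCK and switches on the PER and CRY genes, whose proteins return to the nucleus and silence that pair. The same pair drives DBP and TEF, which activate genes through D-box elements, while NFIL3 represses genes through those elements. In mouse liver, ARNTL and NFIL3 transcripts are high at the time of day when DBP, TEF and PER3 transcripts are low, and CRY1 peaks later than the PER genes.

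The libraries held 2977282 to 4992505 estimated counts, of which 34.7% to 73.6% lay on mitochondrial transcripts, leaving 864571 to 2657103 for nuclear genes. The mitochondrial share was 55.5% ± 11.8 (SD, n = 5) on HFr and 55.4% ± 16.5 (SD, n = 5) on chow (two-sided exact permutation test, p = 0.992). The 10 hepatocyte markers summed to 42988 to 82726 normalized counts per animal, and 5 skeletal muscle markers to 0.374 to 2.72, with MYH2, CKM and MB at 0 in every animal. A normalized count is the count over the library size as CPM, where the library size was first multiplied by edgeR's TMM factor, a trimmed mean of log ratios between libraries. In such bulk tissue, fewer cells of a type and less RNA per cell cannot be told apart. Transcript lengths were not used, so levels were compared between animals and not between genes.

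CLOCK and CRY2 were at the edge of detection. CLOCK, the partner of ARNTL, lies on chromosome 7 (13051454 to 13127241 in ChlSab1.1, as are all positions here) and had 1, 5, 1, 3 and 2 estimated counts in HFr animals 1 to 5 and 1, 3, 15, 2 and 1 in chow animals 1 to 5. CRY2, a repressor on chromosome 1 (19472231 to 19498791), had 0, 1, 1, 7 and 5 counts on HFr and 2, 6, 3, 1 and 1 on chow. Neither passed the filter on low counts. Chow animal 3, with 15 of the 34 CLOCK counts, was also the animal with the most nuclear counts. It stayed the highest after scaling, at 2.73 normalized counts, with HFr animal 2 next at 1.11. When every transcript with a count was fitted, edgeR's quasi-likelihood test gave CLOCK a log2 fold change of HFr over chow of -0.80 (SE 0.68, unadjusted p = 0.251). For CRY2 the same fit gave 0.02 (SE 0.69, unadjusted p = 0.975). Differences of these genes were not detectable at this depth. The other 8 genes passed the filter with 8 to 679 estimated counts per animal, and the few transcripts annotated across a member's span (at CLOCK, PER1, DBP and TEF) held at most 1 count per span over all animals.

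ARNTL, the activator of the loop on chromosome 1 from 51431180 to 51462675, was nearly equal in mean on both diets. Its normalized counts were 10.5, 6.24, 11.2, 4.63 and 21.4 in HFr animals 1 to 5 and 9.31, 12.2, 20.0, 4.52 and 9.58 in chow animals 1 to 5. HFr animal 5 and chow animal 3 were high and animal 4 of each diet was low, so the spread within a diet covered the whole range. The means were 10.8 ± 6.56 and 11.1 ± 5.70 (SD, n = 5 each), with a log2 fold change of -0.09 (SE 0.41, 95% interval -0.96 to 0.79) and an unadjusted p of 0.831 in edgeR.

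Among the PER repressors, PER1 differed most between the diets and still lay well within the spread of the animals. PER1, on chromosome 16 from 7520006 to 7531941, is also a target of glucocorticoid signaling. It had 121, 144, 83.0, 147 and 79.2 normalized counts on HFr and 154, 109, 100, 66.8 and 68.0 on chow. Of the HFr animals 3 lay above the chow mean, but the highest value of all was chow animal 1. The means were 115 ± 32.5 on HFr and 99.6 ± 35.8 on chow (SD, n = 5 each, log2 fold change 0.20, SE 0.26, edgeR unadjusted p = 0.454).

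PER2, on chromosome 10 from 124269543 to 124315905, was the steadiest of the tested members, and its 10 animals lay between 10.4 and 18.7 normalized counts. Its values were 14.6, 18.7, 10.4, 13.7 and 12.2 normalized counts on HFr and 14.5, 11.3, 16.03, 11.55 and 14.6 on chow. The highest and the lowest animal were both on HFr, and its log2 fold change was 0.03 (SE 0.20, 95% interval -0.39 to 0.46, edgeR unadjusted p = 0.868).

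PER3, on chromosome 20 (123912208 to 123970550), had 30.7, 30.1, 27.7, 62.9 and 26.7 normalized counts on HFr and 44.9, 36.5, 29.0, 32.1 and 33.3 on chow. HFr animal 4 stood alone above all others, and the remaining 4 HFr animals overlapped the chow animals at their lower end. The log2 fold change of 0.02 (SE 0.24, edgeR unadjusted p = 0.935) was -0.30 without HFr animal 4 and -0.05 with scaling by library size alone.

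CRY1, the CRY repressor with enough counts to test, lies on chromosome 11 from 102204224 to 102306183. It had 9.36, 8.02, 10.4, 3.97 and 13.4 normalized counts on HFr and 6.81, 6.31, 12.2, 7.03 and 12.3 on chow. Here HFr animal 4 was the lowest and HFr animal 5 the highest, and the diet means of 9.03 ± 3.44 and 8.93 ± 3.05 (SD, n = 5 each) differed by far less than either SD. Its log2 fold change was 0.01 (SE 0.32, 95% interval -0.67 to 0.69, edgeR unadjusted p = 0.968).

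In the D-box arm, DBP and TEF were slightly higher in mean on HFr and NFIL3 lower (on the mean of log2 values NFIL3 was 0.07 higher), all inside the spread between animals. DBP, an activator on chromosome 6 (41882317 to 41889201), had 2.99, 4.68, 5.61, 11.7 and 7.08 normalized counts on HFr and 7.26, 6.31, 6.01, 4.52 and 5.02 on chow. The chow animals were close together, whereas the HFr animals held both the lowest and the highest value. The log2 fold change of DBP was 0.14 (SE 0.32, edgeR unadjusted p = 0.666) and -0.20 without HFr animal 4.

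TEF, the related activator on chromosome 19 (23910119 to 23940044), had 8.98, 15.4, 7.61, 15.7 and 9.04 normalized counts on HFr and 14.98, 9.14, 6.01, 9.04 and 11.4 on chow. HFr animals 2 and 4 and chow animal 1 formed its upper end, and the log2 fold change was 0.19 (SE 0.28, 95% interval -0.42 to 0.80, edgeR unadjusted p = 0.516). NFIL3, the D-box repressor, lies on chromosome 12 from 101845592 to 101846981, a span of 1389 bases that is short beside those of the other members. Its values were 36.3, 31.2, 34.1, 9.71 and 28.9 normalized counts on HFr and 15.7, 22.0, 94.7, 11.55 and 21.9 on chow. Chow animal 3 was far above all others, and the other 4 chow animals lay below the 4 highest HFr animals. Its log2 fold change of -0.29 (SE 0.51, 95% interval -1.37 to 0.80, edgeR unadjusted p = 0.578) was 0.63 without chow animal 3 (unadjusted p = 0.0769), so the direction of NFIL3 rested on that animal.

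**Figure D1:**
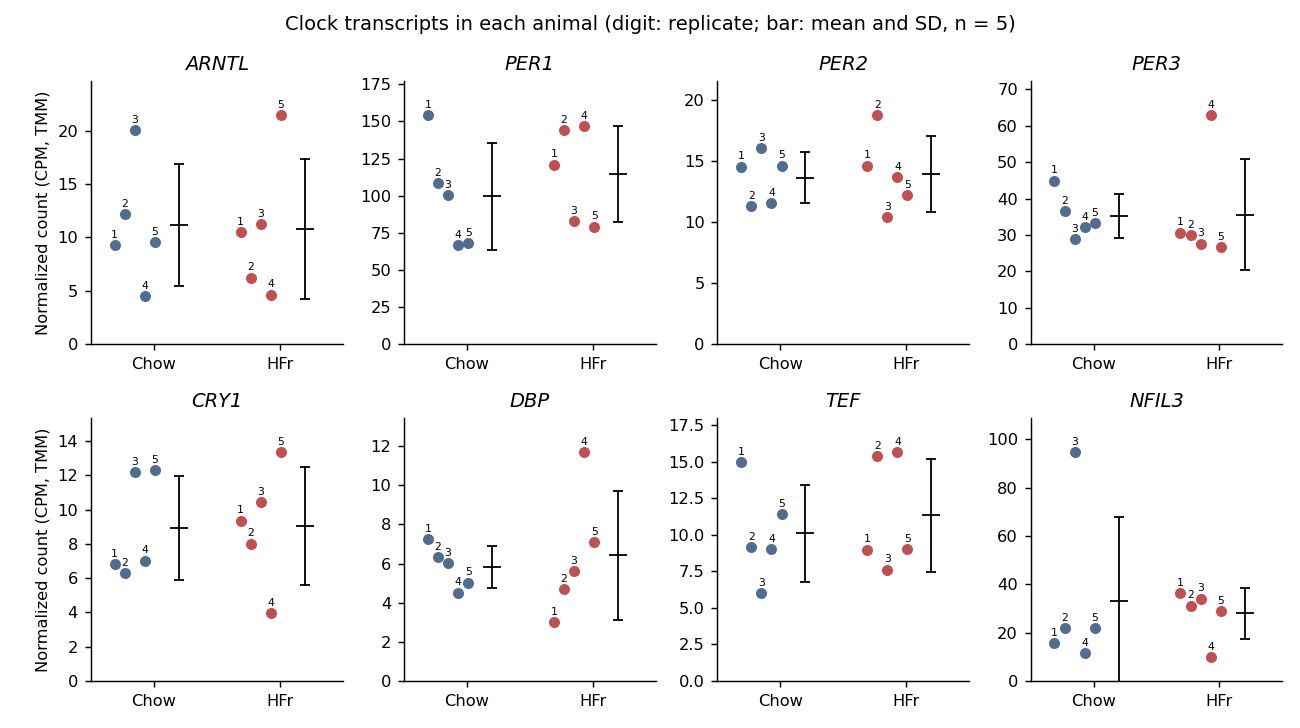
Normalized counts (CPM after TMM scaling) of the 8 tested clock genes in each of 5 chow (blue) and 5 HFr (red) animals. Each point is an animal, labeled with its replicate number, and bars give the mean and SD (cut at 0 for NFIL3 on chow). The diets overlap in every panel, HFr animal 4 is highest for PER3 at 62.9 and lowest for CRY1 at 3.97, and chow animal 3 is highest for NFIL3 at 94.7.

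Of the 8 tested genes, 0 had an unadjusted p under 0.05 in edgeR's quasi-likelihood test, and limma also gave 0, as did DESeq2 for the 7 genes other than NFIL3, to which it gave no p. Of all 7948 transcripts tested, 341 (4.29%) were under that threshold, 2.06% of them all being higher and 2.23% lower on HFr. After Benjamini-Hochberg adjustment the count was 0 among the clock genes and 0 (0%) among all transcripts, and the adjusted p of each clock gene was 0.9996. No clock gene separated the diets without overlap, as 0.541% of all tested transcripts did, 0.214% with HFr above and 0.327% with HFr below chow. The fitted change was positive for 6 genes and negative for 2 under TMM, with PER3 negative under library size scaling, and its median was 0.03 on the log2 scale, beside -0.0007 over all transcripts. Two-sided exact permutation tests over every way to assign 5 of the 10 animals to HFr gave p-values from 0.452 for PER1 to 0.944 for PER2 and DBP on log2(normalized count + 1). The intervals show what the 5 animals per diet leave possible, from -0.39 to 0.46 for the steady PER2 to -1.37 to 0.80 for NFIL3.

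**Figure D2:**
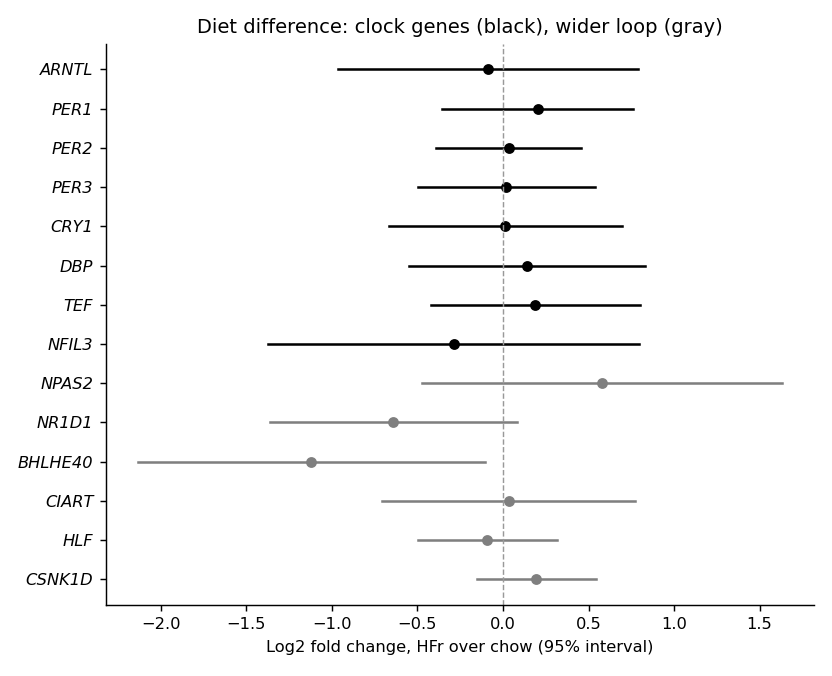
Log2 fold change of HFr over chow for the 8 tested clock genes (black) and 6 tested genes of the wider clock loop (gray), with 95% intervals from edgeR's quasi-likelihood fit (n = 5 per diet). All 8 black intervals include 0, and the NFIL3 interval is the widest of them. Among the gray genes, BHLHE40 has an interval that ends at -0.11.

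Variation between animals of 1 diet was larger for most clock genes than for a typical transcript. The biological coefficient of variation (BCV, edgeR's estimate of the relative spread between animals beyond counting error) had a median of 31.0% over the 8 genes and 25.04% over all tested transcripts. The transcripts were not matched for level in this comparison. NFIL3 reached 54.7% and ARNTL 43.7%, the 97.9th and 93.5th percentile of all tested transcripts. For NFIL3, chow animal 3 was at 94.7 normalized counts and the other chow animals at 11.55 to 22.0. PER2 was at 20.1%, the 14.5th percentile. From the lowest to the highest animal, NFIL3 spanned 9.76-fold, ARNTL 4.74-fold, DBP 3.91-fold and CRY1 3.36-fold.

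The covariation of the clock genes between animals was described on the log2(normalized count + 1) scale, where 1 of the 28 pairs passed adjustment. Pearson's r among ARNTL, CRY1 and NFIL3 ran from 0.71 to 0.74, with rho from 0.56 to 0.66, and among PER3, TEF and DBP r ran from 0.36 to 0.69. The values of ARNTL, CRY1 and NFIL3 were not on the same side of their means in every animal, as in HFr animal 2 with ARNTL at -0.58 and NFIL3 at 0.31, or in chow animals 2 and 5. Between these sets r ran from -0.85 to -0.06 and rho from -0.78 to 0.19. The sets were arranged from these same correlations, without PER1 and PER2, so their signs are a description and no finding of their own. PER1 was at r = 0.59 with TEF, 0.56 with PER3 and -0.58 with CRY1 (permutation p = 0.0794, 0.0819 and 0.0761). Without chow animals 4 and 5, farthest from the PER1 median, these were 0.81, 0.70 and -0.74. They were 0.50, 0.45 and -0.46 without HFr animal 4. With DBP, ARNTL and NFIL3, PER1 was at 0.30, -0.22 and -0.08. With scaling by library size alone, all 28 pairs of the 8 genes were positive, against 14 positive and 14 negative pairs with TMM. The divisor of that scaling includes the mitochondrial counts, 34.7% to 73.6% of a library. It thus lowers all nuclear genes together where that share is high, and its signs are no separate reading of the covariation. Values of an animal share 1 library and 1 scaling factor.

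**Figure D3:**
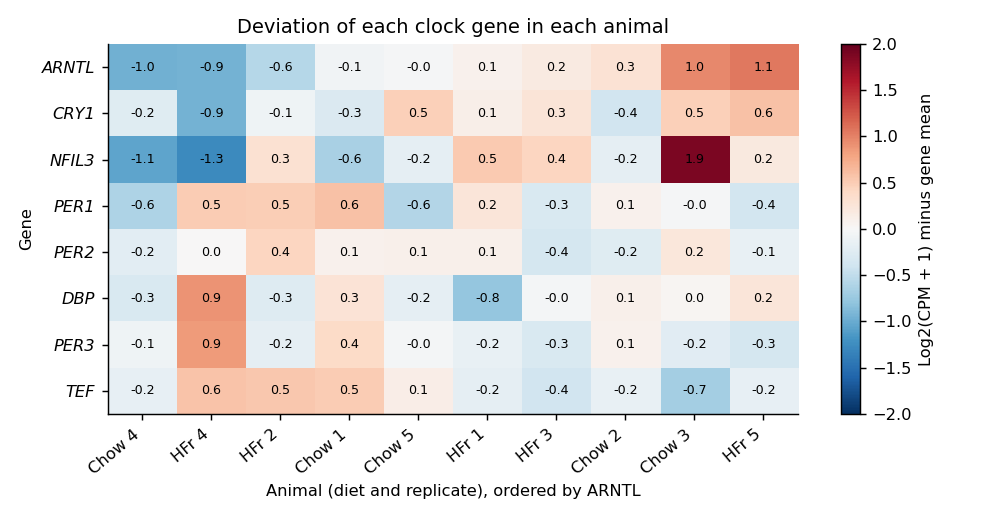
Log2(normalized count + 1) of each clock gene (rows) in each animal (columns, ordered by ARNTL) minus the mean of that gene over the 10 animals, with TMM scaling. Red is above and blue below the mean. HFr animal 4 is at -0.94 for ARNTL and CRY1, -1.28 for NFIL3, 0.86 for PER3 and 0.90 for DBP, while chow animal 3 is at 1.88 for NFIL3 and -0.69 for TEF.

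The negative relation of PER3 and CRY1, both repressors of the loop, was the strongest of the 28 pairs. Across the 10 animals r was -0.85 (permutation test, p = 0.00159, Benjamini-Hochberg adjusted p = 0.0445 over 28 pairs) and Spearman's rho was -0.78 (permutation p = 0.00987, adjusted p = 0.275). It was the only pair with an adjusted p under 0.05. Within the diets, as deviations from the diet means, r was -0.85 (exact permutation p = 0.00757, adjusted p = 0.106). Without HFr animal 4 and chow animal 1, which were farthest from the median of PER3, r was -0.66 (exact permutation p = 0.0770), and without HFr animal 4 alone it was -0.68. With library size scaling r was 0.02. The pass after adjustment was lost when any of 8 animals was left out (all but HFr animal 2 and chow animal 5), without mitochondrial transcripts, as deviations from diet means and with Spearman's rho.

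The remaining 8 pairs with an unadjusted permutation p under 0.05 had adjusted p-values from 0.138 to 0.149. ARNTL rose and fell with NFIL3 at r = 0.74 (permutation p = 0.0137, adjusted p = 0.138, rho = 0.66 with permutation p = 0.0434) and was at r = 0.80 without HFr animal 5 and chow animal 4, farthest from the ARNTL median. ARNTL with CRY1 gave r = 0.74 (permutation p = 0.0164, rho = 0.59 with permutation p = 0.0809), and 0.69 without the same 2 animals. CRY1 with NFIL3 gave r = 0.71 (permutation p = 0.0197, rho = 0.56 with permutation p = 0.0964).

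The activator TEF went against both ARNTL and the D-box repressor NFIL3. For TEF and NFIL3 r was -0.66 (permutation p = 0.0346, rho = -0.68 with permutation p = 0.0349) and -0.73 without HFr animals 4 and 2. For ARNTL and TEF r was -0.64 (permutation p = 0.0479, rho = -0.55 with permutation p = 0.106) and -0.89 without HFr animal 5 and chow animal 4. Both relations were weaker without chow animal 3 alone. TEF was then at r = -0.44 with NFIL3 (exact permutation p = 0.238) and at -0.50 with ARNTL (exact permutation p = 0.173).

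The remaining relations of PER3 were weaker without its 2 farthest animals. It followed DBP at r = 0.69 (permutation p = 0.0368, rho = 0.33 with permutation p = 0.347), which was -0.18 without HFr animal 4 and chow animal 1. With TEF it gave r = 0.67 (permutation p = 0.0312, rho = 0.65 with permutation p = 0.0491), falling to 0.26 without those animals. Its relation to NFIL3 was r = -0.68 (permutation p = 0.0399, rho = -0.73 with permutation p = 0.0197) and -0.47 without them.

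Several pairs that belong together in the loop had no unadjusted permutation p under 0.05 here. DBP and ARNTL, an output of the loop and its driver, had r = -0.06 (permutation p = 0.879, rho = 0.19 with permutation p = 0.605). ARNTL and PER3 had r = -0.55 (permutation p = 0.0955, rho = -0.59 with permutation p = 0.0796), and PER1 and PER2 had r = 0.51 (permutation p = 0.129, rho = 0.28 with permutation p = 0.427). With 1 animal left out, r ran from -0.68 to -0.32 for ARNTL and PER3. For PER1 and PER2 it ran from 0.38 to 0.66. DBP with TEF gave 0.36 (permutation p = 0.315, rho = 0.41 with permutation p = 0.247), DBP with NFIL3 gave -0.38 (permutation p = 0.269, rho = -0.39 with permutation p = 0.263) and PER2 with PER3 gave 0.06 (permutation p = 0.871, rho = -0.01 with permutation p = 1). PER2 had no pair with an unadjusted permutation p under 0.05.

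**Figure D4:**
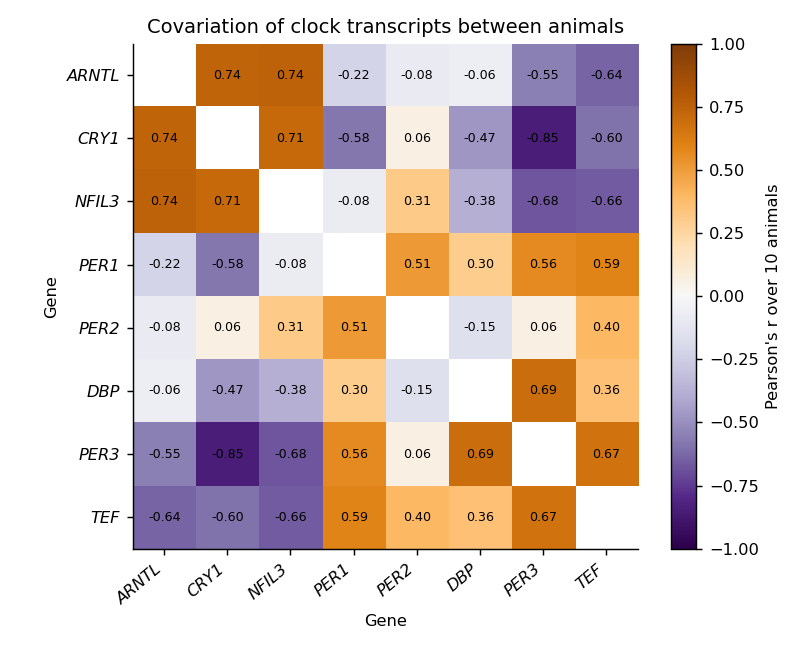
Pearson's r of log2(normalized count + 1) for each pair of the 8 tested clock genes over the 10 animals, with TMM scaling. ARNTL, CRY1 and NFIL3 form a positive block at 0.71 to 0.74 and the darkest cell is PER3 with CRY1 at -0.85. With library size scaling, whose divisor includes the mitochondrial counts, all 28 values were positive.

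HFr animal 4 carried much of this shared variation. It was the highest of the 10 animals for PER3, DBP and TEF and the lowest for CRY1 and NFIL3. Without it, 1 of 28 pairs had an unadjusted exact permutation p under 0.05 and none passed adjustment. The correlations of ARNTL, CRY1 and NFIL3 with each other then ran from 0.59 to 0.66, and 7 of the 9 correlations with PER3, TEF and DBP were negative, with values from -0.68 to 0.46. ARNTL with DBP, at -0.06 in all animals, was 0.46 without it. Without HFr animal 4 and chow animal 3, which lie at the ends of the order by NFIL3, 1 pair was under 0.05 and none passed adjustment. This last setting was chosen after the values were seen.

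**Figure D5:**
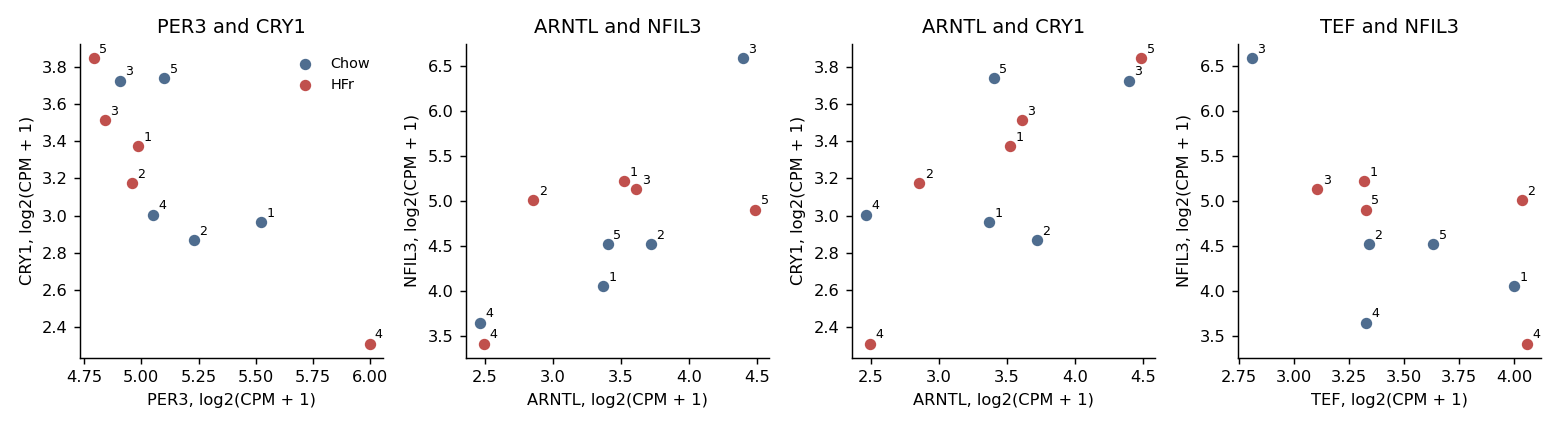
Log2(normalized count + 1) of 4 pairs of clock genes with TMM scaling, 1 point per animal (blue chow, red HFr, labeled with the replicate number). PER3 against CRY1 (r = -0.85) falls toward HFr animal 4 at the lower right, ARNTL rises with NFIL3 (r = 0.74) and CRY1 (r = 0.74), and NFIL3 falls with TEF (r = -0.66). With library size scaling, whose divisor includes the mitochondrial counts, these relations were all positive.

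The difference of DBP and ARNTL on the log2 scale sets an output of the loop against its driver within each animal. It was -1.52, -0.35, -0.89, 1.17 and -1.47 in HFr animals 1 to 5 and -0.32, -0.85, -1.59, 0 and -0.81 in chow animals 1 to 5. HFr animal 4 was the only animal above 0. The HFr animals spanned 1.17 to -1.52 and enclosed all chow animals but chow animal 3. The means were -0.61 ± 1.11 on HFr and -0.71 ± 0.60 on chow (SD, n = 5 each), a difference of 0.10 that is small beside either SD.

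After TMM scaling, no relation of a clock gene to the mitochondrial share of the counts passed adjustment. The strongest was that of ARNTL, at r = -0.52 (permutation p = 0.129, adjusted p = 0.742 over 8 genes), followed by NFIL3 at -0.44. With library size scaling, 4 of the 8 genes had an adjusted permutation p under 0.05 for this relation, PER2 at r = -0.83 and ARNTL at -0.79 among them. That is the scaling with which all 28 pairs were positive. Its divisor includes the mitochondrial counts, so a negative relation to their share is partly set by the scaling itself. As deviations from a straight line on the mitochondrial percent, a setting added after the values were seen, PER3 and CRY1 were at r = -0.85 and ARNTL and NFIL3 were at 0.67.

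Of 18 relations of the summed lists to ARNTL or PER3, a family added after the values were seen, none passed adjustment, and 2 had an unadjusted permutation p under 0.05. The 6 tested immediate early genes, which respond within minutes to many stimuli, summed to 109, 47.7, 231, 23.6 and 177 normalized counts in HFr animals 1 to 5 and 148, 514, 277, 62.8 and 140 in chow animals 1 to 5. HFr animal 4 was the lowest of all. ARNTL followed the sum at r = 0.78 (permutation p = 0.00801, adjusted p = 0.0721 over 18 relations, rho = 0.83 with permutation p = 0.00496), or 0.86 without HFr animal 5 and chow animal 4. The sum weights FOS most, which had the highest mean of the 6 genes. FOS made up 369 of the 514 in chow animal 2 but 5.35 of the 47.7 in HFr animal 2. The lymphocyte markers, of which 4 of 8 were tested and none was at 0 in every animal, summed over the whole list to 31.8 to 54.1 on HFr and 29.96 to 44.7 on chow. PER3 went against the 4 tested ones at r = -0.73 (permutation p = 0.00631, adjusted p = 0.0721, rho = -0.83 with permutation p = 0.00462), or -0.60 without HFr animal 4 and chow animal 1. The part of these readouts in the covariation of the clock genes was not tested.

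Around the core loop, 8 of 16 listed partners and modifiers had enough counts to test. With edgeR, 3 were higher and 5 lower on HFr, the median log2 fold change was -0.09, and 1 had an unadjusted p under 0.05 (4.29% of all transcripts did). That gene was BHLHE40 (DEC1), a repressor that competes with the ARNTL and CLOCK pair. BHLHE40 had 21.0, 9.13, 37.7, 22.7 and 45.4 normalized counts on HFr and 32.9, 56.8, 137, 21.6 and 42.9 on chow. The HFr animals were lower in mean with wide overlap, at 27.2 ± 14.4 against 58.3 ± 46.0 (SD, n = 5 each, log2 fold change -1.12, SE 0.47, edgeR unadjusted p = 0.0326, adjusted p = 0.9996). The value for BHLHE40 without chow animal 3 was -0.52 (edgeR unadjusted p = 0.200). Its p was also above 0.05 without HFr animal 1, 2 or 4, at 0.0636, 0.0706 and 0.0622 in edgeR.

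The other modifiers were under no threshold. NR1D1 (REV-ERB alpha), the nuclear receptor that represses ARNTL, had 2.91 ± 1.24 normalized counts on HFr and 4.75 ± 1.58 on chow (SD, n = 5 each, log2 fold change -0.64, SE 0.34, edgeR unadjusted p = 0.0782). NPAS2, which can stand in for CLOCK as partner of ARNTL, had a log2 fold change of 0.58 (SE 0.49), with 38.7 normalized counts in HFr animal 5 and 5.02 to 13.5 in the other animals. HLF, a relative of DBP and TEF, was at -0.09 (SE 0.19), and CSNK1D, a kinase of the PER proteins, was at 0.20 (SE 0.16).

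Between animals, 4 of the 16 relations of these partners to ARNTL or PER3 had an unadjusted permutation p under 0.05 and none an adjusted one, in a family added after the values were seen. BHLHE40 followed ARNTL at r = 0.75 (permutation p = 0.0137, adjusted p = 0.110, rho = 0.76 with permutation p = 0.0156), or 0.83 without HFr animal 5 and chow animal 4. NPAS2 also followed ARNTL, at r = 0.67 (permutation p = 0.0297, adjusted p = 0.158, rho = 0.67 with permutation p = 0.0380). HLF ran against PER3 at r = -0.74 (permutation p = 0.0122, rho = -0.53 with permutation p = 0.123) and CSNK1D with it at 0.65 (permutation p = 0.0444, rho = 0.49 with permutation p = 0.154). Both of the last relations were at -0.07 without HFr animal 4 and chow animal 1, so they rested on those animals. NR1D1 was at r = -0.16 with ARNTL (permutation p = 0.646, rho = -0.08 with permutation p = 0.838).

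Of 18 listed liver genes under clock control, 10 were tested, 5 higher and 5 lower on HFr with a median log2 fold change of -0.11, and 2 had an unadjusted p under 0.05 in edgeR (4.29% of all transcripts did). PDK4, a kinase that restrains pyruvate oxidation, was at 188 ± 56.0 normalized counts on HFr and 112 ± 37.0 on chow (SD, n = 5 each, log2 fold change 0.75, SE 0.26, edgeR unadjusted p = 0.0120, adjusted p = 0.9996). The 5 HFr values, from 114 to 261, overlapped the chow values of 72.6 to 169. KLF10, a transcription factor induced by glucose, was at 10.5 ± 6.04 and 23.8 ± 19.2 (log2 fold change -1.18, SE 0.49, edgeR unadjusted p = 0.0288), and at -0.55 (edgeR unadjusted p = 0.194) without chow animal 3. Its p was also above 0.05 without HFr animal 1, 2 or 4, at 0.0598, 0.0637 and 0.0533 in edgeR. CYP2E1, GYS2, ALAS1 and POR, with roles in drug, glycogen and heme metabolism, had log2 fold changes of -0.33 (SE 0.26), 0.07 (SE 0.20), 0.16 (SE 0.19) and 0.27 (SE 0.24).

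Glucocorticoid hormones set clock phase in liver and drive PER1, and their targets were read beside it. Of 12 listed, 11 were tested, 5 higher and 6 lower on HFr with a median log2 fold change of -0.02, and 0 had an unadjusted p under 0.05 with edgeR, DESeq2 or limma, beside 4.29% of all transcripts with edgeR. The gluconeogenic enzymes TAT and PCK1 were at 0.27 (SE 0.33) and -0.12 (SE 0.28), the phosphatase DUSP1 at -0.66 (SE 0.38) and the serine dehydratase SDS at 0.15 (SE 0.91). SDS ranged from 4.13 to 424 normalized counts over the HFr animals alone.

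The immediate early list had 6 of 10 genes tested, 1 higher and 5 lower on HFr, with a median log2 fold change of -1.07. MYC, a growth regulator, was at 10.3 ± 6.12 on HFr and 20.6 ± 8.94 on chow (normalized counts, SD, n = 5 each). Its log2 fold change was -1.04 (SE 0.43, edgeR unadjusted p = 0.0295, adjusted p = 0.9996), and it was the 1 gene under an unadjusted p of 0.05 (4.29% of all transcripts were). Without chow animal 3, chow animal 5 or HFr animal 5 the edgeR unadjusted p of MYC was 0.0851, 0.0619 or 0.0730. FOS, EGR1, JUNB and IER3 had log2 fold changes of -1.27 (SE 0.78), -1.41 (SE 0.87), -0.35 (SE 0.54) and 0.22 (SE 0.54). FOS spanned 5.35 to 137 normalized counts on HFr and 18.6 to 369 on chow.

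Over all 7947 other tested transcripts, those whose log2 values were most like ARNTL across the 10 animals were EOGT (r = 0.91), the unnamed gene ENSCSAG00000015080 (0.91), ZFP36 (0.90), CSF3R (0.90) and ASAH1 (0.89). ZFP36, which encodes an mRNA-destabilizing protein, ran from 21.8 to 326 normalized counts and had nearly the rank order of ARNTL (rho = 0.98). At the other end were STK11IP (-0.94), RHBDF1 (-0.92), AURKAIP1 (-0.91), WDR34 (-0.91) and MBD3 (-0.91). The clock genes themselves stood lower in this order: NFIL3 was number 103 and CRY1 number 117 from the top, and TEF was number 319 and PER3 number 586 from the bottom. PER1, PER2 and DBP lay in the middle, at r between -0.22 and -0.06.

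The transcripts most like DBP were STAG3 (r = 0.91), SLC44A2 (0.91), ZBTB40 (0.90), GRB14 (0.90) and GLS2 (0.90), and those most opposed were PCK1 (-0.92), ARF4 (-0.90), the unnamed gene ENSCSAG00000007429 (-0.88), ACOT7 (-0.87) and NENF (-0.87). PCK1, the rate-limiting enzyme of gluconeogenesis, was lowest at 974 normalized counts in HFr animal 4, the animal with the highest DBP, and highest at 2797 in HFr animal 1, the animal with the lowest. PER3 was number 176 from the top of this order and TEF number 1442. ARNTL, in the middle at number 4402, was not among the transcripts opposed to DBP. These correlations are descriptions over 10 animals chosen from the ends of a long order, and with Spearman's rho 2 of the 10 named for ARNTL and 2 of the 10 named for DBP were again among the ends.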

How the data were processed

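Liver mRNA libraries of 10 animals, 1 each, were analysed. To obtain the estimated counts the authors demultiplexed with CASAVA 1.8, checked reads with FastQC, aligned them to ChlSab1.1 (STAR 2.5.3a in the submitters' processing notes) with Ensembl release 93 models, and quantified transcripts by expectation-maximization in Partek Flow. These values are not normalized. The strand setting of the quantification is not given in the sources used here. The normalized table of the authors and their test results were not used. Coordinates are those of the deposited table.

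Estimated counts were rounded, passed through filterByExpr (at least 10 counts, scaled to the library, in 5 animals and 15 in total), scaled by TMM and tested with edgeR 4.0.16 (quasi-likelihood, diet as the only term) in R 4.3.3, with Benjamini-Hochberg adjustment over 7948 transcripts. Alternatives used DESeq2 1.42.0, limma 3.58.1, other scalings and filters, robust estimation, a replicate block and each animal left out. Single values were compared by two-sided exact permutation over all assignments of 5 of 10 animals, whose smallest possible p is 0.00794. Correlations used log2(normalized count + 1) with 100000 permutations, or all orders for 9 or fewer animals. In HFr versus chow data simulated for 7906 transcripts, 90% of 100 with a log2 change of 1 reached p below 0.05 in edgeR. Of these 100, 50% passed adjustment, and 4.81% of 7709 unchanged ones had p below 0.05. Each simulated transcript had the spread typical of its level, not its own. The shares thus do not give the power for genes as variable as NFIL3 and ARNTL (BCV 54.7% and 43.7%). Replicates of a diet differed beyond sampling noise.

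All 10 members are named. From each list, every tested gene with an unadjusted p under 0.05 and up to 4 more with the highest mean are named, and the 5 highest and 5 lowest r for ARNTL and DBP. NR1D1 and NPAS2 were added to these, and the family of relations to ARNTL and PER3 was set up, after their values were seen. The pairs ARNTL with CLOCK and CRY1 with CRY2 were listed but could not be computed on filtered values. The values of 2 genes of the wider loop list are not reported here, although they are counted in its totals. Members and lists were chosen with earlier results of these data known, and the lists were written from general knowledge.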

Additional observations from a re-analysis of the deposited data

Results flagged for a closer look

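In 58 groups of 5 animals, 5 had an animal far from the others by Dixon's criterion, where chance marks about 1 in 20. The groups were the tested members, the difference of DBP and ARNTL, and the list genes picked by p or mean, in each diet. PER3 was 62.9 normalized counts in HFr animal 4, with the next HFr animal at 30.7. NFIL3 was 9.71 in the same animal, with the next lowest HFr animal at 28.9. NFIL3 was 94.7 in chow animal 3, with the next chow animal at 22.0. POR was 84.7 in HFr animal 2, with the next at 53.8, and EGR1 was 28.5 in HFr animal 5, with the next at 5.61. Of the 5, 3 thus fell on clock genes, and 2 of these on HFr animal 4. NPAS2 and NR1D1, added after their values were seen, were outside this screen. NPAS2 was 38.7 normalized counts in HFr animal 5, with the next HFr animal at 11.6 and the lowest at 5.35.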

How the results depend on the processing

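None of the 8 tested clock genes had an unadjusted or adjusted p under 0.05 in any of the 24 alternative fits (23 for ARNTL and DBP, which have under 10 counts in some animals, and 23 for NFIL3, to which DESeq2 gave no p). The smallest p was 0.0769 (NFIL3 without chow animal 3). Signs near 0 did move. PER3 was -0.0473 with library size scaling, -0.0466 and -0.0491 with limma at a pseudocount of 1 and 0.1, and -0.0560 with the replicate block. CRY1 was -0.0163 and -0.0247 with limma, and its difference of log2 means was 0.0107 with library size scaling. NFIL3 was 0.0712 and 0.0777 with limma and 0.0883 with the block.

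Leaving out each animal gave log2 fold changes from -0.54 to 0.24 for ARNTL, -0.20 to 0.21 for CRY1, -0.20 to 0.30 for DBP, -0.50 to 0.63 for NFIL3, -0.10 to 0.11 for PER2, -0.30 to 0.13 for PER3, 0.0865 to 0.41 for PER1 (0.20 with all animals) and 0.0315 to 0.40 for TEF (0.19 with all animals). The sign turned for ARNTL without HFr animal 2, HFr animal 4 or chow animal 3, for DBP without HFr animal 4, for NFIL3 without chow animal 3 and for PER2 without HFr animal 2, chow animal 2 or chow animal 4. It turned for PER3 without HFr animal 4 or chow animals 3, 4 or 5, and for CRY1 without 6 of the 10 animals. Differences of log2 means ran from -0.35 to 0.16 for ARNTL, -0.17 to 0.22 for CRY1, -0.20 to 0.22 for DBP, -0.18 to 0.55 for NFIL3, -0.0880 to 0.11 for PER2, -0.27 to 0.0434 for PER3 and -0.00588 to 0.29 for TEF, and DBP minus ARNTL from -0.34 to 0.33.

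Pairs with an adjusted p under 0.05 numbered 9 with library size scaling and 0 without mitochondrial transcripts, as deviations from diet means, with Spearman's rho and without chow animal 3 and HFr animal 4, against 1 as reported. With 1 animal left out they numbered 0 to 2 (2 without HFr animal 2, 1 without chow animal 5 and 0 otherwise). Library size scaling gave r of 0.46 for ARNTL and DBP, 0.27 for ARNTL and PER3, 0.21 for DBP and NFIL3 and 0.0171 for PER3 and CRY1. It also put 4 members in relation to the mitochondrial share, whose counts are part of its divisor. ARNTL and DBP were at 0.19 by rank, 0.44 without chow animal 3 and HFr animal 4, and -0.21 to 0.46 with 1 animal left out. PER2 and PER3 were at -0.00606 by rank and -0.11 to 0.22 with 1 animal left out. With 1 animal left out, PER3 and CRY1 were between -0.89 and -0.68.

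Genes under an unadjusted p of 0.05 numbered, for the immediate early list, 3 with library size scaling, 2 with any count and 0 to 2 with 1 animal left out. For clock output genes they numbered 1 with 10 counts in every animal and with robust estimation, 4 with limma at either pseudocount and 1 to 3 with 1 animal left out. For the wider loop they numbered 0 with the mitochondrial covariate, limma and robust estimation and 0 or 1 with 1 animal left out, and for glucocorticoid targets 1 with the block and 0 to 2 with 1 animal left out. The causes were not tested. Same-numbered animals did not deviate together (r from -0.287 to 0.0986, with 1 of 10 animals closest to its own number). The numbers thus gave no sign of pairs, although these values cannot exclude a pairing. The replicate block left 271 of 7948 transcripts under an unadjusted p of 0.05 against 341, and 0 clock genes. Depth limited DBP (8 to 53 counts per animal) and left CLOCK and CRY2 untested.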
